A study of Mus musculus with 6 samples.

Results

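The genes described here are those of glucose transport, glycolysis and the pentose phosphate pathway, measured in sorted bone marrow pre-B cells of mice with and without Mef2c. They were taken from a list of 41 genes. A gene was represented by a probe set, a group of array probes read as 1 value, to which the platform annotation gives exactly 1 gene symbol, and where a gene had several, by the brightest over the 6 arrays. The older symbol Pkm2 was read as Pkm, and the hexose transporter Slc2a6 was placed on the list with its values already known. Of the 41 genes, 34 had such a probe set and 30 were bright enough to be tested, out of 11271 genes tested and 23913 probe sets deposited in all. Aldoc, Pfkfb2, Eno2 and Pgm1 lay below the brightness limit, a mean log2 value of 7.26 over the 6 arrays, and Gpi1, Pfkfb1, Gapdh, Eno1, Ldhb, Pgm2 and G6pdx were not analysed here.

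Mef2c-deficient pre-B cells came from Vav-Cre Mef2cfl/fl mice (3 arrays), in which Cre driven by the Vav promoter deletes Mef2c throughout the blood-forming system and not in B cells alone. Control pre-B cells (3 arrays) carry only that word as their genotype in the labels, and the study's methods allow as controls age-matched Mef2cfl/fl, Mef2cfl/+ or Vav-Cre Mef2cfl/+ mice, so floxed alleles may stand in both groups and some controls may carry Cre with 1 deleted allele. All mice were 9 months old, and the study used both sexes and sorted pre-B cells as B220+ cells without surface IgM or CD43. Nothing used here ties an array to an animal, so each p-value measures the spread between these samples.

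Glycolysis splits glucose into pyruvate in the cytosol, and the pentose phosphate pathway branches from its first intermediate to make ribose for nucleotides and NADPH. Glucose enters through SLC2A transporters, pyruvate is either reduced to lactate, which leaves through SLC16A transporters, or oxidised in mitochondria under the control of pyruvate dehydrogenase kinases. Pre-B cells divide and then pause while immunoglobulin light chains are rearranged, and B-cell progenitors are known to take up more glucose while they grow than when they rest.

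Values below are log2 of the deposited values, whose base is not settled: the highest is 21.03 as a log2 and 14.58 as a natural log, and 2% of values exceed the 65535 that a scanner can record. If that base was e, every log2 difference shrinks to 0.693 times the one printed and keeps its direction and p-value. The median deposited value was 277 to 285 in Mef2c-deficient arrays and 236 to 268 in control arrays. Log2 values correlated across genes at Pearson's r of 0.868 to 0.943 among Mef2c-deficient arrays and of 0.957 to 0.986 among control arrays. The median difference over all genes tested was -0.36, Mef2c-deficient minus control, and it depended on brightness: with no brightness limit it was 0.073 over 17372 genes, with the limit at the 60th percentile it was -0.54, and over bins of genes by brightness it ran from 0.39 in the dimmest to -0.67 among bright genes. Mef2c itself was not analysed here, so its level gives no check of the labels. The B-lineage gene Cd79b had log2 values of 18.20 to 19.06 in Mef2c-deficient arrays and of 18.76 to 19.22 in control arrays. Over 11 B-lineage markers the median deviation from the control mean was -0.02, -0.38 and -0.79 in Mef2c-deficient replicates 1, 2 and 3, against -0.04, -0.06 and 0.02 in control replicates 1, 2 and 3, and single markers lay on both sides, with differences of -1.15 for Ebf1, -1.09 for Il7r and 1.56 for Ms4a1. None of the 11 passed the adjusted threshold, and their summed level was 1484930 to 2225490 in Mef2c-deficient arrays and 1986270 to 2533100 in control arrays. Lists of markers of other cells were summed as well: the summed deposited value of 8 plasmacytoid dendritic cell markers was 359664 to 1246640 in Mef2c-deficient arrays and 126301 to 396306 in control arrays, that of 12 monocyte and macrophage markers was 141030 to 837818 in Mef2c-deficient and 108061 to 170716 in control arrays, and that of 10 neutrophil markers was 46211.5 to 1291730 in Mef2c-deficient and 34321.2 to 178817 in control arrays. Each of these lists had its highest sum in Mef2c-deficient replicate 3. So did 9 T and NK cell markers, at 3517.23 to 51035.9 in Mef2c-deficient and 1986.84 to 5017.89 in control arrays. The sum of 8 erythroid markers was lowest there, at 36310.2 to 69898.1 in Mef2c-deficient and 69723.8 to 103194 in control arrays. Their median deviation on that array was 0.72. The sum of 6 plasma cell markers was also lowest there, at 224922 to 338555 in Mef2c-deficient and 305024 to 439476 in control arrays. A sum follows its brightest genes, by mean Ly6d for the dendritic cell list and Ctss for the monocyte list. Ly6d had log2 values of 18.57, 17.61 and 18.68 in Mef2c-deficient arrays, against 17.84, 16.79 and 18.30 in control arrays. Siglech, the next, had 14.41, 16.55 and 18.54 in Mef2c-deficient arrays, against 12.59, 12.51 and 15.53 in control arrays. These sums thus do not measure such cells alone. The bioB control, a bacterial RNA added to each array before hybridisation, exceeded its control mean by 2.63, 1.54 and 1.07 in Mef2c-deficient replicates 1, 2 and 3, against 0.03, 0.15 and -0.17 in control replicates 1, 2 and 3. The median deviation of 19 mitosis genes from their control means was -1.56, -2.77 and -1.93 in those Mef2c-deficient arrays, against 0.26, -0.003 and -0.29 in those control arrays. In sorted bulk samples, fewer cells of a kind and less RNA per cell cannot be told apart.

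To show what lies upstream of the genes on which the results turn, the 250 bases before the RefSeq gene start are printed for 3 pairs of relatives, the hexose transporters Slc2a1 and Slc2a6, the bifunctional regulators of phosphofructokinase Pfkfb3 and Pfkfb4, and the lactate transporters Slc16a1 and Slc16a3. The pairs were chosen after their values were seen. Sequences run 5′ to 3′ on the strand of the gene (build GRCm38.p6), with ACGTG on either strand in capitals. ACGTG is the core of the hypoxia response element bound by HIF factors, and it also lies in CACGTG, the E-box bound by Myc, Mlx and their relatives. Slc2a1 lies on the + strand and its window is chr4:119108495-119108744. Slc2a6 lies on the - strand with the window chr2:27027999-27028248, and Pfkfb3, also on the - strand, with chr2:11553930-11554179 for the first of its 2 starts. On the + strand, the windows are chr9:108991652-108991901 for Pfkfb4, chr3:104638414-104638663 for Slc16a1 and chr11:120948817-120949066 for Slc16a3.
Slc2a1: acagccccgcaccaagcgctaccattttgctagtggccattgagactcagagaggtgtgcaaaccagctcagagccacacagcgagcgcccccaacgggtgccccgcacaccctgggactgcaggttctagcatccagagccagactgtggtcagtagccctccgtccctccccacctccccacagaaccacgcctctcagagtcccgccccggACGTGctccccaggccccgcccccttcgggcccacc
Slc2a6: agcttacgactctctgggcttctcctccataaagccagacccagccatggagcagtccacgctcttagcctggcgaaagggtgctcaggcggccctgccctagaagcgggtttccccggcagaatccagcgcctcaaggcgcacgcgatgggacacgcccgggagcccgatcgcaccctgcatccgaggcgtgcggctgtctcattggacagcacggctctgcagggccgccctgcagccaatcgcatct
Pfkfb3: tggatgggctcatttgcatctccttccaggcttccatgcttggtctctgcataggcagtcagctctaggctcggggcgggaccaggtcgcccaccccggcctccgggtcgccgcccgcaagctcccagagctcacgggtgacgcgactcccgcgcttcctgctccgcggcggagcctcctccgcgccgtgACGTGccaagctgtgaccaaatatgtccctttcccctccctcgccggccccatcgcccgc
Pfkfb4: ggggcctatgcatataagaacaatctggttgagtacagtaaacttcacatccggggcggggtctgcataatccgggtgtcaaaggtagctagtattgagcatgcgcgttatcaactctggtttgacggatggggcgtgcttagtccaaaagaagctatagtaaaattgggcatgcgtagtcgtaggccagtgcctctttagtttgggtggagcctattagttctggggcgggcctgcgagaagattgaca
Slc16a1: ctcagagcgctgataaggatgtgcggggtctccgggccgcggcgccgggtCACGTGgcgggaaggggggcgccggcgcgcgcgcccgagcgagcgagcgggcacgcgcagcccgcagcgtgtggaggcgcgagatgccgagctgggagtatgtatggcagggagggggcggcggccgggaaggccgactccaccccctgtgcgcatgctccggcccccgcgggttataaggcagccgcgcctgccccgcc
Slc16a3: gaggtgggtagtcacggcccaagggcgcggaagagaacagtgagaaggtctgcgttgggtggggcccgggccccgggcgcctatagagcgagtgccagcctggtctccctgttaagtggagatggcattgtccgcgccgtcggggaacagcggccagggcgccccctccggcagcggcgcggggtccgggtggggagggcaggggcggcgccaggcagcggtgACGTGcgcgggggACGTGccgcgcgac

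In the printed windows, ACGTG stands 36 bases before the start of Slc2a1, 60 before that of Pfkfb3, and 27 and 14 before that of Slc16a3. Slc16a1 holds the E-box CACGTG, and so does the window of the second Pfkfb3 start, which is not printed. Neither Slc2a6 nor Pfkfb4 holds ACGTG in its window. Across the list, 40 genes had promoter windows in the RefSeq table and Slc2a3 was the 1 without. Of the 40, 17 (42.5%) held ACGTG on either strand in at least 1 window, and so did 18.5% of 27025 genes with windows. Among tested genes with windows it was 14 of 29 (48.3%) of the list, beside 24.4% of 9100. CACGTG, which contains ACGTG, was found in 6 of 40 (15%) and in 6.86% of all genes with windows, and the MEF2 consensus in 1 of 40 (2.5%), Pfkfb1, and in 3.42%. Among tested genes CACGTG was found in 5 of 29 (17.2%), beside 9.69% of the 9100, and the MEF2 consensus in 0 of 29, beside 1.89%. Genes differ in their number of windows, which was not matched. Of the 14 tested genes with ACGTG, 8 had a lower mean and 6 a higher mean in Mef2c-deficient cells (median difference -0.26), and of the 15 tested genes without it, 11 had a lower and 4 a higher mean (median -0.48).

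The question asked of these arrays was how the transcripts of glucose use change in pre-B cells that lack Mef2c. No gene of the list passed the limma adjusted p of 0.05 over all genes tested, where 0.0177% of all genes passed as lower and 0% as higher. At an unadjusted limma p under 0.05, 3 of the 30 (Slc16a1, Pfkfb3 and Rpe) were lower in Mef2c-deficient cells, against 20.9% of all genes tested, and 3 (Slc2a6, Slc2a1 and Pfkfb4) were higher, against 5.32% of all genes. Slc2a6 was listed with its values already known, so its place in the counts of higher genes carries no weight. With the replicate number as a block in limma, 7 were lower and 3 higher, beside 23.1% and 6.72% of all genes. Slc2a9, Tpi1, Pgk1 and Pdk2 were the 4 added. The numbers were taken to pair the arrays from correlations in these same data, and the labels do not say so. After cyclic loess scaling 0 were lower and 4 higher, beside 10.2% and 8.26% of all genes. As deposited, without the block and with no detection calls used here, the same 6 met the thresholds of the study. These were a p of 0.05 or less with at least a 2-fold change as deposited, and 14.7% of all genes met them as lower and 2.64% as higher. On the base of e, Pfkfb3 and Slc2a1 alone met them, against 5.83% and 1% of all genes.

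The mean of 19 genes was lower in Mef2c-deficient cells and that of 11 was higher, with differences of -1.56 to 1.84. The median difference of the 30 was -0.39, beside -0.36 over all genes tested. Thus 63.3% of the list and 62.3% of all genes had a lower mean. Groups did not overlap for 10 of the 30 (33.3%), 4 of them lower and 6 higher, while over all genes they did not overlap for 37.7%, 27.1% as lower and 10.6% as higher. Slc16a3, among the 6 higher, passed the brightness limit only through its Mef2c-deficient arrays, and Slc2a6, also among them, was listed with its values known.

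**Figure D1:**
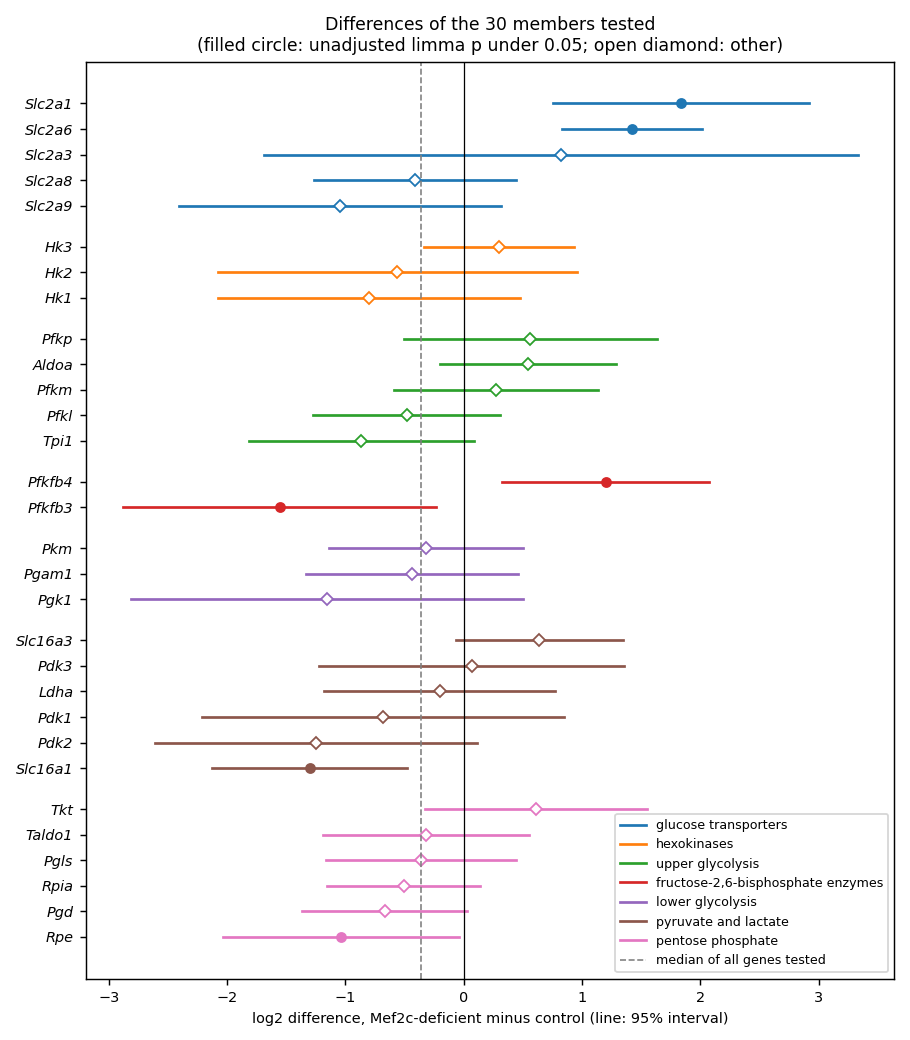
Log2 difference, Mef2c-deficient minus control, with its 95% interval from limma (n = 3 each) for the 30 genes tested, grouped by role, with filled circles for an unadjusted p under 0.05 and a dashed line at the median of all genes tested (-0.36). Differences run from -1.56 for Pfkfb3 to 1.84 for Slc2a1, and the intervals of all but 6 genes hold 0.

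The glucose and hexose transporters held both of the smallest p-values of the list, but Slc2a6 was listed with its values already known. Its rank in the list therefore carries no weight. Slc2a6, a hexose transporter of the SLC2A family (probe set 1434015_at), had log2 values of 11.18, 11.08 and 11.28 in Mef2c-deficient arrays, against 9.73, 9.75 and 9.79 in control arrays. Each Mef2c-deficient array stood above each control array, and the range was 0.20 among Mef2c-deficient and 0.055 among control arrays. The means were 11.18 ± 0.10 in Mef2c-deficient and 9.76 ± 0.03 in control cells (SD, n = 3 each), a difference of 1.42 (SE 0.25, 95% interval 0.83 to 2.02). This is 2.68-fold as deposited, or 1.98-fold if the base was e. Ranked by p over all genes tested, Slc2a6 was number 93 (limma p of 0.000656, adjusted p of 0.0781). Over the alternatives run, the difference was 1.37 to 1.88 and the adjusted p 0.0192 to 0.34, under 0.05 only where limma's array weights were used. That setting called 1001 genes lower and 153 higher in all.

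Slc2a1 encodes GLUT1, the main glucose transporter of blood cells (1426599_a_at, where the suffix _a marks probes shared by several transcripts of a gene). Its log2 values were 16.85, 15.72 and 15.05 in Mef2c-deficient arrays, against 14.02, 14.20 and 13.90 in control arrays. The groups did not overlap, but the Mef2c-deficient arrays spanned far more than the control arrays, with replicate 1 highest. Means of 15.87 ± 0.91 in Mef2c-deficient and 14.04 ± 0.15 in control cells (SD, n = 3 each) differed by 1.84 (SE 0.46, 95% interval 0.75 to 2.92; limma adjusted p = 0.106), or 3.57-fold as deposited and 2.42-fold on the base of e. Without Mef2c-deficient replicate 3 the difference was 2.25 with a limma adjusted p of 0.0473, and with array weights it was 2.04 with 0.0194. At that threshold limma called 154 genes lower and 5 higher in all without that array. With array weights it called 1001 lower and 153 higher, against 2 lower and 0 higher in the main fit. Relative to its control mean, Slc2a1 stood at 2.81, 1.68 and 1.01 in Mef2c-deficient replicates 1, 2 and 3, beside 2.63, 1.54 and 1.07 for the bioB control on the same arrays. Of 11271 genes tested, 2 lay within 0.25 of bioB on all 3 Mef2c-deficient arrays, Slc2a1 and Kcnj9 (2.82, 1.33 and 0.92), a likeness noticed after the values were seen. The part of the added control in this result was not tested.

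The remaining transporters gave no shared direction. Slc2a9, which carries urate and hexoses, had log2 values of 12.81, 11.97 and 10.56 in Mef2c-deficient arrays, against 13.00, 13.24 and 12.24 in control arrays, with overlapping groups and a difference of -1.05 (SE 0.58; limma adjusted p = 0.264, or 0.141 with the block). Without Mef2c-deficient replicate 3 the difference was -0.44, and without Mef2c-deficient replicate 1 it was -1.56. Its dimmer probe set differed by -1.41. Slc2a3, which encodes the high-affinity transporter GLUT3 and is given here because it varied most, had log2 values of 6.48, 8.54 and 11.16 in Mef2c-deficient arrays, against 7.72, 7.23 and 8.77 in control arrays. Its highest array in each group was replicate 3, as was that of the plasmacytoid dendritic cell markers, whose median deviation was 0.74, 1.53 and 3.81 in Mef2c-deficient replicates 1, 2 and 3, against -0.57, -0.42 and 0.70 in control replicates 1, 2 and 3. The median deviation of the neutrophil markers was -0.02, -1.11 and 4.69 in the same Mef2c-deficient arrays, against -0.31, -1.20 and 1.09 in the control arrays. The part of such cells in the values of Slc2a3 was not tested. Slc2a8, a transporter of internal membranes, differed by -0.42 (95% interval -1.27 to 0.44).

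**Figure D2:**
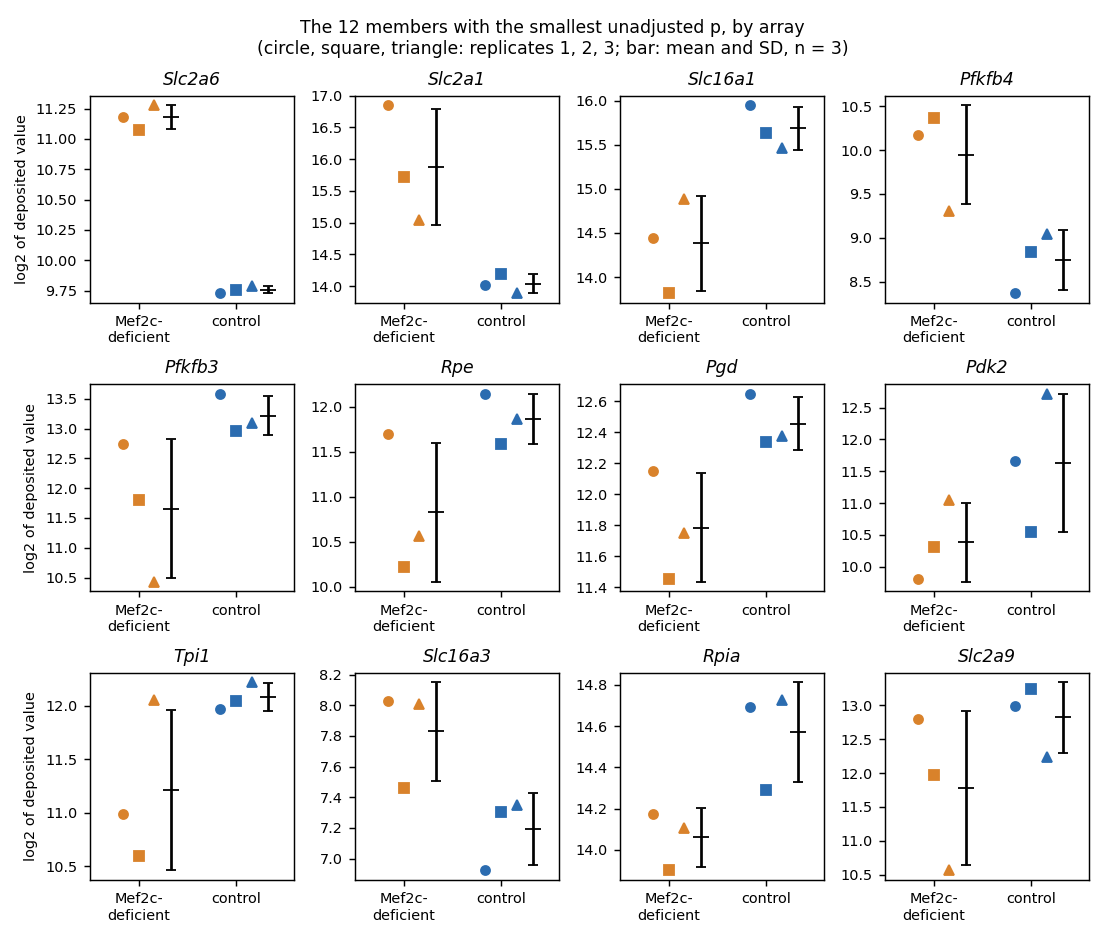
Log2 of the deposited value on each array for the 12 genes of the list with the smallest unadjusted p, Mef2c-deficient left of control, with circle, square and triangle for replicates 1, 2 and 3 and a bar for the mean and SD (n = 3). Slc2a6 sits at 11.08 to 11.28 in Mef2c-deficient arrays and at 9.73 to 9.79 in control arrays, while Slc2a1 and Pfkfb3 spread widely among the Mef2c-deficient arrays.

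**Figure D3:**
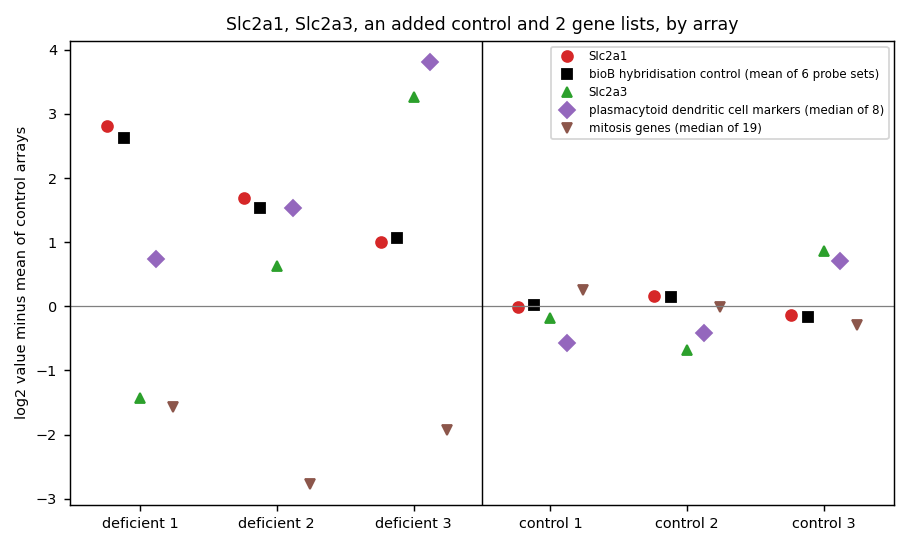
Deviation from the control mean (log2), by array, for Slc2a1, Slc2a3, the bioB hybridisation control (mean of 6 probe sets), the median of 8 plasmacytoid dendritic cell markers and the median of 19 mitosis genes. Slc2a1 and bioB lie close together on each Mef2c-deficient array, and Slc2a3 and the dendritic cell markers are highest in Mef2c-deficient replicate 3.

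Hexokinases, which trap glucose in the cell by phosphorylating it, gave no call at an unadjusted p of 0.05 over the 6 arrays. Hk1, the housekeeping form, had log2 values of 9.43, 9.56 and 9.17 in Mef2c-deficient arrays, against 9.91, 9.22 and 11.44 in control arrays. The difference was -0.80 (95% interval -2.08 to 0.47), and without control replicate 3, the highest array, it was -0.18. Hk2, the form that rises with growth signals, had 9.21, 8.84 and 11.28 in Mef2c-deficient arrays, against 9.9997, 10.05 and 10.97 in control arrays, a difference of -0.56 (95% interval -2.08 to 0.96). It was -1.31 without Mef2c-deficient replicate 3 (limma adjusted p = 0.0885), and -0.28 without Mef2c-deficient replicate 1, -0.095 without Mef2c-deficient replicate 2 and -0.25 without control replicate 3. For Hk3, a form of myeloid blood cells, the values were 9.98, 10.11 and 9.75 in Mef2c-deficient arrays, against 9.80, 9.66 and 9.49 in control arrays. Its groups overlapped by a single pair of arrays and differed by 0.30 (95% interval -0.33 to 0.93).

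The phosphofructokinases, which commit sugar to glycolysis, went different ways in their means. Pfkl, the liver form, had log2 values of 9.69, 10.52 and 10.61 in Mef2c-deficient arrays, against 10.60, 10.72 and 10.95 in control arrays (difference -0.48, 95% interval -1.27 to 0.31). Pfkm, the muscle form, had 9.30, 9.04 and 10.26 in Mef2c-deficient arrays, against 9.25, 9.31 and 9.21 in control arrays (difference 0.27, 95% interval -0.59 to 1.14). Its higher mean rested on Mef2c-deficient replicate 3, without which the difference was -0.09. Pfkp, the platelet form, had 10.27, 11.42 and 9.73 in Mef2c-deficient arrays, against 10.22, 9.68 and 9.83 in control arrays (difference 0.56, 95% interval -0.51 to 1.63), with replicate 2 far above the other arrays.

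Below them in the pathway, Tpi1, the triose phosphate isomerase, had log2 values of 10.99, 10.60 and 12.05 in Mef2c-deficient arrays, against 11.97, 12.05 and 12.22 in control arrays. It was low in Mef2c-deficient replicates 1 and 2 only (difference -0.87, SE 0.41; limma adjusted p = 0.213, or 0.166 with the block). Aldolase A, Aldoa, was higher in each Mef2c-deficient than in each control array (difference 0.54, 95% interval -0.20 to 1.29), by a probe set whose suffix, _x, marks probes that can bind other transcripts. The brain form Aldoc, below the brightness limit, differed by 1.16 (SE 0.65).

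The bifunctional enzymes that make and remove fructose-2,6-bisphosphate, the activator of phosphofructokinase, stood on both sides. Pfkfb3, the form with the strongest kinase activity (1416432_at), had log2 values of 12.74, 11.80 and 10.43 in Mef2c-deficient arrays, against 13.59, 12.97 and 13.10 in control arrays. All Mef2c-deficient arrays lay below the control arrays, replicate 3 the furthest. The means were 11.66 ± 1.16 in Mef2c-deficient and 13.22 ± 0.33 in control cells (SD, n = 3 each), a difference of -1.56 (SE 0.57, 95% interval -2.88 to -0.23; limma adjusted p = 0.155). Without Mef2c-deficient replicate 3 the difference was -0.94.

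Pfkfb4, the form first described in testis (1456888_at), had 10.17, 10.37 and 9.30 in Mef2c-deficient arrays, against 8.37, 8.84 and 9.04 in control arrays. Here each Mef2c-deficient array lay above each control array. Means of 9.95 ± 0.57 in Mef2c-deficient and 8.75 ± 0.34 in control cells (SD, n = 3 each) differed by 1.20 (SE 0.38, 95% interval 0.32 to 2.08; limma adjusted p = 0.132). The 2 tested genes of the family thus had differences of opposite sign. Pfkfb2, the heart form, lay below the brightness limit with a difference of -1.11 (SE 0.31), for which limma without that limit gave an adjusted p of 0.132.

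The 3 tested enzymes of lower glycolysis had lower means in Mef2c-deficient cells, with overlapping groups. Pgk1, phosphoglycerate kinase, had log2 values of 10.63, 11.69 and 13.66 in Mef2c-deficient arrays, against 12.83, 13.08 and 13.51 in control arrays. Replicate 3 reached the control level and replicates 1 and 2 did not, and the difference was -1.15 (SE 0.71; limma adjusted p = 0.295, or 0.167 with the block), beside -1.21 for its second probe set. Both probe sets carry the _x suffix. Pgam1, a phosphoglycerate mutase, differed by -0.44 and Pkm, pyruvate kinase M, by -0.32, but the sign of Pgam1 turned under 2 other scalings of the arrays and that of Pkm under 3. The neuronal enolase Eno2, below the brightness limit, differed by -0.23.

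Among genes of pyruvate and lactate, the means of the lactate transporters differed in opposite directions, and neither passed the adjusted threshold. Slc16a1 encodes MCT1, which carries lactate and pyruvate across the cell membrane (1415802_at). Its log2 values were 14.44, 13.82 and 14.89 in Mef2c-deficient arrays, against 15.95, 15.64 and 15.47 in control arrays. No Mef2c-deficient array reached the control range. The means of 14.38 ± 0.54 in Mef2c-deficient and 15.69 ± 0.25 in control cells (SD, n = 3 each) differed by -1.30 (SE 0.35, 95% interval -2.13 to -0.48; limma adjusted p = 0.111). With array weights the limma adjusted p was 0.0225 and the difference -1.66, in a setting that called 1001 genes lower in all. Slc16a3, which encodes the lactate exporter MCT4, had 8.03, 7.46 and 8.01 in Mef2c-deficient arrays, against 6.92, 7.31 and 7.35 in control arrays. Its mean was 7.83 in Mef2c-deficient and 7.19 in control arrays, and the brightness limit was 7.26. Slc16a3 thus passed that limit only through the group where it was high, so its direction carries no weight here. It was higher in each Mef2c-deficient array by at least a small margin, with a difference of 0.64 (SE 0.30; limma adjusted p = 0.216).

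Ldha, lactate dehydrogenase A, had 14.78, 15.50 and 16.26 in Mef2c-deficient arrays, against 15.70, 16.02 and 15.44 in control arrays. The Mef2c-deficient arrays lay on both sides of the control arrays, and the difference of -0.20 (95% interval -1.18 to 0.77) turned to between 0.03 and 0.26 under the 4 other scalings. The pyruvate dehydrogenase kinases, which hold pyruvate back from the mitochondrion, had wide values. Pdk1, a target of HIF, had 7.86, 9.53 and 10.57 in Mef2c-deficient arrays, against 10.37, 9.51 and 10.13 in control arrays (difference -0.68, 95% interval -2.21 to 0.85), and without Mef2c-deficient replicate 1 the difference was 0.05. Pdk2 had 9.81, 10.31 and 11.04 in Mef2c-deficient arrays, against 11.65, 10.55 and 12.71 in control arrays (difference -1.25, SE 0.58; limma adjusted p = 0.211, or 0.122 with the block). Within same-numbered arrays Pdk2 was lower in 3 of 3 pairs, by differences of -1.85, -0.24 and -1.67. For Pdk3 the values were 10.32, 9.45 and 11.76 in Mef2c-deficient arrays, against 10.50, 10.41 and 10.42 in control arrays (difference 0.07, 95% interval -1.22 to 1.36), and without Mef2c-deficient replicate 3 the difference was -0.56. The groups overlapped for each of the kinases.

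In the pentose phosphate pathway, 5 of the 6 tested genes had lower means in Mef2c-deficient cells, where 62.3% of all genes did, and Pgd, Rpia and Rpe kept the lower mean under all 5 scalings. G6pdx, its entry enzyme, was not analysed here. Pgd, the next dehydrogenase and a source of NADPH, had log2 values of 12.15, 11.45 and 11.75 in Mef2c-deficient arrays, against 12.65, 12.34 and 12.38 in control arrays. The groups stood apart, with a difference of -0.67 (SE 0.30, 95% interval -1.37 to 0.03; limma adjusted p = 0.201). Rpe, ribulose phosphate epimerase, had 11.69, 10.22 and 10.56 in Mef2c-deficient arrays, against 12.14, 11.58 and 11.87 in control arrays, where Mef2c-deficient replicate 1 fell within the control range. Its means of 10.83 ± 0.77 in Mef2c-deficient and 11.86 ± 0.28 in control cells (SD, n = 3 each) differed by -1.04 (SE 0.43, 95% interval -2.03 to -0.04; limma adjusted p = 0.180). Rpia, which makes ribose phosphate, had 14.18, 13.90 and 14.11 in Mef2c-deficient arrays, against 14.69, 14.29 and 14.73 in control arrays. It was separated by a narrow gap, with a difference of -0.51 (SE 0.28; limma adjusted p = 0.257), and under cyclic loess the difference was -0.01.

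Transketolase and transaldolase link the pathway back to glycolysis. Tkt had a higher mean and groups apart (difference 0.61, 95% interval -0.33 to 1.55), with an SD of 0.07 in Mef2c-deficient and 0.74 in control arrays. Taldo1 differed by -0.32 and the lactonase Pgls by -0.36, and the sign of Taldo1 turned under 3 other scalings and that of Pgls under 2. Pgm1, a phosphoglucomutase that joins glycogen and glycolysis, lay below the brightness limit and differed by 0.09 (95% interval -1.67 to 1.85).

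The genes varied more between Mef2c-deficient arrays than between control arrays. The range over the 3 arrays was wider in Mef2c-deficient cells for 26 of the 30 (86.7%), where it was wider for 71.8% of all genes tested. The median range was 1.23 in Mef2c-deficient and 0.51 in control arrays for the list, beside 0.98 in Mef2c-deficient and 0.58 in control arrays for all genes. Hk1, with a range of 0.39 in Mef2c-deficient and 2.22 in control arrays, was among the 4 exceptions. Of the 30, 9 were lowest in Mef2c-deficient replicate 1 and highest in replicate 3, Ldha, Pdk1, Pdk2, Pfkl, Pgam1, Pgk1, Pkm, Slc2a3 and Taldo1, a pattern of 21.1% of all genes. The opposite pattern was seen in Pfkfb3, Slc2a1 and Slc2a9 and in 17.9% of all genes. The median deviation of the list from its control means was -0.35, -0.46 and 0.16 in Mef2c-deficient replicates 1, 2 and 3, against 0.04, -0.05 and 0.04 in control replicates 1, 2 and 3.

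**Figure D4:**
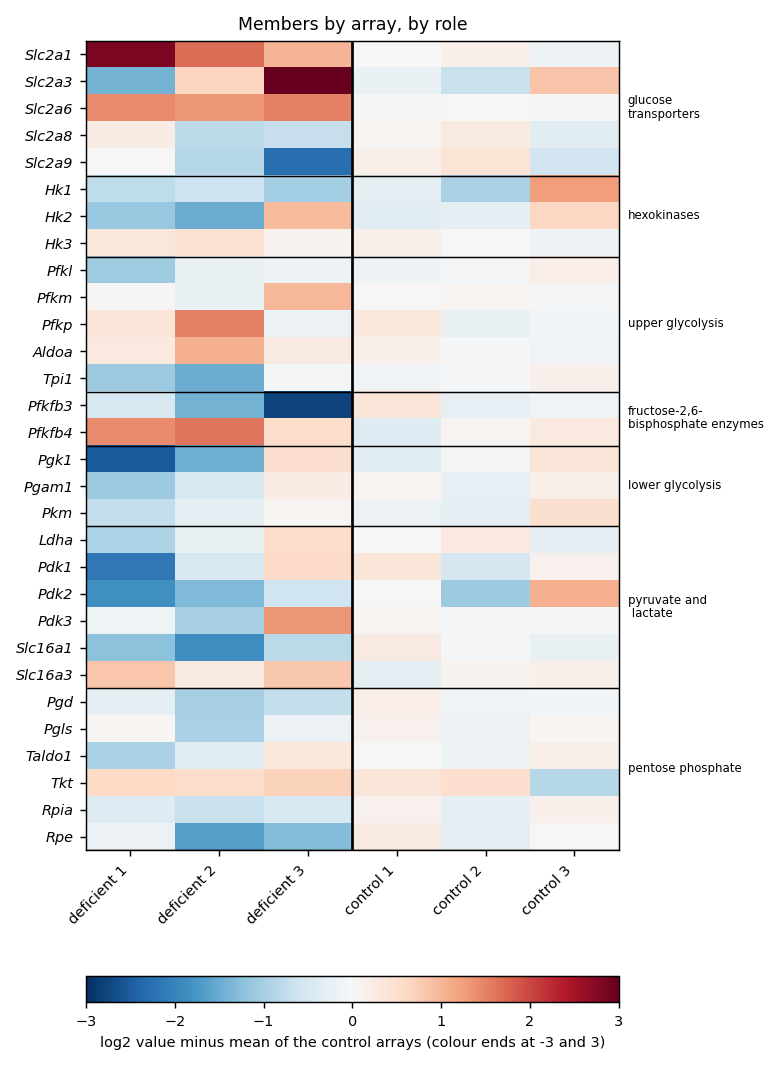
Deviation from the control mean (log2) of each of the 30 genes on each array, as colour (ends at -3 and 3), with genes in rows by role and the Mef2c-deficient arrays left of the control arrays. Slc2a6 is higher on all 3 Mef2c-deficient arrays, while Slc2a1 and Slc2a3 run in opposite orders over them.

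Genes next to the list in metabolism, from lists made with earlier results of these data known, held no call at the limma adjusted threshold. They were counted as deposited only. Under the other scalings, not run for these lists, the share of lower over all genes fell to between 6.48% and 11.1%. Bright genes as a whole had medians down to -0.67 as deposited. Of 10 genes of the pyruvate dehydrogenase complex and pyruvate import, 5 (50%, beside 20.9% of all genes tested) passed an unadjusted p of 0.05 as lower in Mef2c-deficient cells and 0 as higher, with a median difference of -0.78. Dlat, its acetyltransferase core, had log2 values of 10.99, 10.91 and 11.11 in Mef2c-deficient arrays, against 11.98, 12.18 and 12.10 in control arrays. The groups were more than their own ranges apart, with a difference of -1.08 (SE 0.26; limma adjusted p = 0.0977). Pdha1, the catalytic subunit on which the pyruvate dehydrogenase kinases act, differed by -1.18, the binding protein Pdhx by -1.06 and the dehydrogenase Dld by -0.97 (limma adjusted p of 0.115 to 0.122), each with groups apart.

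Of 8 further genes of pentose phosphate and ribose use, 4 (50%, beside 20.9% of all genes) were lower and 0 higher at that p (median -0.96). Differences were -0.99 for Prps1 and -0.92 for Prps2, which make the activated ribose of nucleotide synthesis. They were -1.18 for Prpsap2, a protein that binds these enzymes, and -0.90 for the ribokinase Rbks. Of 23 further genes of hexose transport and use, glycogen and amino sugars, 4 (17.4%) were lower and 1 higher (median -0.25), a share of lower genes below the 20.9% of all genes. Uap1, which makes the nucleotide sugar for glycosylation, had 8.72, 9.53 and 8.90 in Mef2c-deficient arrays, against 11.03, 11.05 and 11.28 in control arrays. The difference of -2.07 (SE 0.31; limma adjusted p = 0.0745) came from a probe set with the _x suffix. Pgm2l1, a glucose bisphosphate synthase, differed by -2.31, and Phka1 and Pygb, which act in glycogen breakdown, by -2.62 and -1.13.

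Of 26 regulators of glycolytic genes, 6 (23.1%) were lower and 0 higher at the same p (median -0.65), a share close to the 20.9% of all genes. Mxi1, a repressor that competes with Myc, had 11.40, 10.95 and 10.74 in Mef2c-deficient arrays, against 12.73, 12.35 and 12.99 in control arrays (difference -1.66, SE 0.32; limma adjusted p = 0.0861). The growth kinases Mtor and Akt1 differed by -1.75 and -1.54 and the E-box factor Mlx by -0.92. Of 16 other genes of glycolysis and gluconeogenesis, 2 (12.5%, beside 20.9% of all genes) were lower and 0 higher (median -0.39), with -1.06 for Minpp1 and -0.82 for Bpgm, which break down and make bisphosphoglycerate, and no unadjusted call for Pklr (0.91) or Fbp2 (0.61). The mitosis genes had a median difference of -1.87 on the same arrays, and their part in these values was not tested.

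Scaling of the arrays set where 0 lay. The median difference of all genes was -0.36 as deposited, -0.10 after quantile normalization, -0.04 after cyclic loess, -0.07 with arrays centred on the kept probe sets and 0.10 with arrays centred on the genes tested. Under these 5 scalings 24 of the 30 genes kept the sign of their difference, 13 as lower and 11 as higher, and Slc2a8, Pgam1, Pkm, Ldha, Pgls and Taldo1 did not. The like share over all genes was not counted, so this count shows nothing particular to the list. The 11 include Slc16a3, which passed the brightness limit only through its Mef2c-deficient arrays, and Slc2a6, listed with its values known. Slc2a6 differed by 1.42 to 1.88, Slc2a1 by 1.84 to 2.30, Pfkfb4 by 1.20 to 1.66 and Slc16a1 by -1.30 to -0.84 over the same scalings.

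**Figure D5:**
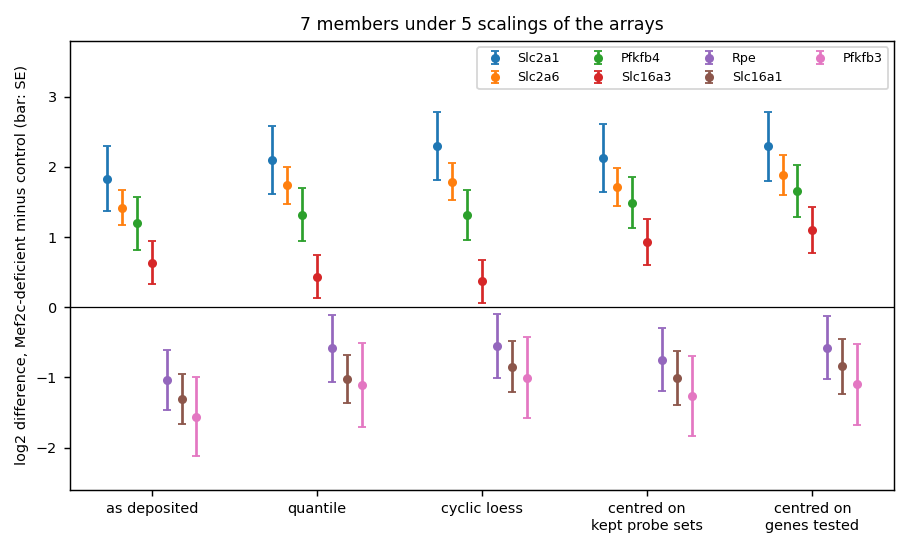
Log2 difference, Mef2c-deficient minus control, with its SE from limma (n = 3 each) for 7 genes of the list under 5 scalings of the arrays. Slc2a1, Slc2a6, Pfkfb4 and Slc16a3 stay above 0 and Rpe, Slc16a1 and Pfkfb3 below it under each. Slc16a3 passed the brightness limit only through its Mef2c-deficient arrays.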

How the data were processed

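RNA of sorted pre-B cells was hybridised to Affymetrix mouse genome arrays, 3 from Mef2c-deficient and 3 from control samples, grouped by the genotype in the labels. The authors deposited intensity values on a linear scale, made per the study's methods by robust multiarray averaging, with background adjustment and quantile normalization. For its own analysis the study left out probes called absent or marginal in more than a set number of replicates. Whether that rule chose the deposited probe sets was not given in the sources used here, nor were the base of the scale and any tool version. The members, the gene lists and the tests were chosen with earlier results of these data known.

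The log2 of each value was taken without an offset. Of the probe sets, 17689 had 1 symbol in the platform annotation, which can be old, 524 several and 5699 none, 1 more was an AFFX control with a symbol, and 17538 matched RefSeq with 0 symbols changed. The 25 AFFX controls were left out. Probe sets with a 6-array mean above the 40th percentile of all (7.26) were used, and the brightest represented its gene. The comparison used limma 3.58.1 under R 4.3.3, a linear model of group alone with eBayes, two-sided, and p-values were adjusted by Benjamini-Hochberg over 11271 genes. The fit was tested on simulated data. The few arrays limit the precision.

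Deviations from the group means ran together in arrays with the same number (correlations of 0.348, 0.226 and 0.373 across genes, against -0.309 to 0.129 for different numbers), so the numbers were taken to pair the arrays, though the labels are silent on their meaning. Values on each array were given for Slc2a6, the 12 genes of the list with the smallest p, and the hexokinase, phosphofructokinase, lactate dehydrogenase and pyruvate dehydrogenase kinase families. Up to 4 genes with the smallest p were named for each neighbouring list, a few of them with values on each array. Slc2a3 and Pgk1 were added after their values were seen. Alternatives were other filters, scalings, an offset of 16, array weights, other variance models, the methods' t-test, other probe set rules, the replicate block and leaving out each array. Promoter windows are those of RefSeq (GRCm38.p6). Some genes, Mef2c among them, were not analysed here.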

Additional observations from a re-analysis of the deposited data

Results flagged for a closer look

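A signal outside the gene measurement was higher in the Mef2c-deficient arrays than in the control arrays. The bioB hybridisation control, a bacterial RNA added to each array before hybridisation, averaged over 6 probe sets, exceeded the mean of the control arrays by 2.63 in Mef2c-deficient replicate 1, by 1.54 in replicate 2 and by 1.07 in replicate 3 on the log2 scale, while the control arrays lay between -0.17 and 0.15. Slc2a1 was the 1 gene of the list that lay within 0.25 of these values on all 3 Mef2c-deficient arrays, and the part of this control in any gene's value was not tested. No outlying array was looked for, since each group held 3.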

How the results depend on the processing

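The filters, other variance models, the methods' t-test and the replicate block leave a gene's difference as it was, so agreement there was fixed in advance. Of 391 values of the 21 genes of the list followed through all alternatives, 382 kept their direction, and the like share over all genes was not counted. Those that turned were Ldha (0.033 after quantile normalization, 0.21 after cyclic loess, 0.088 and 0.26 with arrays centred on the kept probe sets and on the genes tested, -0.58 to 0.16 on leaving out 1 array), Pdk1 (-1.31 to 0.050), Pfkm (-0.090 to 0.52) and Pdk3 (-0.56 to 0.60, and -0.36 with array weights). The turns came without Mef2c-deficient replicate 1 for Ldha and Pdk1 and without Mef2c-deficient replicate 3 for Pfkm and Pdk3. Centring on the genes tested and the base of e were added after the data were seen.

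The 3 genes lower at an unadjusted p became 5 with no filter, 1 after quantile normalization, 0 after cyclic loess, 1 centred on the kept probe sets, 8 with array weights and 0 centred on the genes tested, and the 3 higher became 5 and 7 under the centrings. Over all genes the share of lower was 20.9% as reported and 15.4%, 11.1%, 10.2%, 10.7%, 26.1% and 6.48% in that order of settings, and the share of higher, 5.32% as reported, was 14.0% and 20.2% under the centrings. Leaving out 1 array gave 1 to 8 lower and 2 to 4 higher, beside 12.4% to 23.7% of all genes lower and 2.12% to 7.07% higher. Without Mef2c-deficient replicate 3 it was 8 lower, without Mef2c-deficient replicate 1 it was 5, and without Mef2c-deficient replicate 2, control replicate 1 or control replicate 3 it was 1. At the adjusted threshold the 0 lower and 0 higher became 1 and 3 with array weights (Slc16a1, Slc2a6, Slc2a1 and Pfkfb4), where limma called 1001 genes lower and 153 higher in all, and 0 to 1 higher on leaving out 1 array (Slc2a1). That 1 came without Mef2c-deficient replicate 3, where limma called 154 genes lower and 5 higher in all. At the thresholds of the study the 3 lower became 1 after quantile normalization, with the methods' t-test, centred on the kept probe sets and on the base of e, 0 after cyclic loess or centred on the genes tested, 7 with array weights and 1 to 6 on leaving out 1 array. The 3 higher became 6 centred on the genes tested, 1 on the base of e and 2 to 3 on leaving out 1 array. Over all genes the shares at these thresholds were 14.7% lower and 2.64% higher as deposited, and 5.83% and 1% on the base of e. They were not counted in the other settings, so these counts show no change particular to the list.

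In the fit with a replicate block, the numbers being taken to pair the arrays, 7 genes were lower at an unadjusted p and 6 at the thresholds of the study. The first count stands beside 23.1% of all genes, and for the second the share over all genes was not counted. The block changed no call at the adjusted threshold, and Slc2a6 had a limma adjusted p of 0.0793.

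The median difference (-0.39) became -0.12 after quantile normalization, 0.014 after cyclic loess, -0.10 and 0.073 under the centrings, and -0.54 to -0.11 on leaving out 1 array. Relative to all genes tested (-0.03) it became -0.41 with no filter, 0.10 with the 60th percentile filter, 0.056 after cyclic loess, 0.022 without the 11 members, Slc2a1 among them, whose probe sets carry a suffix (_a for 9, _x for 2), and -0.22 to 0.17 on leaving out 1 array. The share of lower among all genes called at an unadjusted p was 79.7% as deposited, 60.5% after quantile normalization, 55.2% after cyclic loess, and 43.3% and 24.3% under the centrings. The cause of these shifts was not tested. With no detection calls used, the signal over background of dim genes such as Slc16a3 is not known.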
